A study of Homo sapiens with 58 samples.

Results

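The RAB small GTPase genes were followed here across a HuR CLIP-seq experiment in the human hepatocellular carcinoma line Huh-7.5. Members were taken by name: every peak of the combined coverage table whose gene symbol is RAB, a number and at most 1 further letter was kept, after repeated lines of the table had been dropped. This gave 1013 peaks in 41 genes out of 387214 peaks, of which 302856 carry a gene name. The gene name does not use any measured value, so tests between groups of libraries are open to these members.

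RAB proteins are small GTPases that switch between a GDP-bound form held in the cytosol and a GTP-bound form on a membrane, where they recruit motors, tethers and sorting proteins. Different RAB proteins mark different compartments, such as early endosomes, recycling endosomes, late endosomes, the Golgi or secretory vesicles. HuR, the product of ELAVL1, binds U-rich and AU-rich stretches in introns and 3'UTRs of RNA. It is mostly nuclear, shuttles to the cytoplasm, and is known there for stabilising its target mRNAs.

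The 58 libraries hold RNA fragments that were crosslinked to HuR by UV (doses of 400 and 200 mJ/cm2) and immunoprecipitated with the 3A2 antibody. Cells were mock treated or received 0.5 mM sodium arsenite for 45 min, a stress under which stress granules form. The study asked how HuR binding differs between nucleus, cytoplasm and stress granules. Wild-type cells without an APEX reaction were fractionated into nucleus and cytoplasm, with 3 libraries for each of the 4 combinations of fraction and treatment.

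The other libraries come from APEX-NLS, APEX-NES and APEX-G3BP1 cells, which carry an ascorbate peroxidase in the nucleus, in the cytoplasm or on the stress granule protein G3BP1. With biotin phenol (0.5 mM) and hydrogen peroxide (1 mM) the enzyme biotinylates proteins near it. The enriched libraries had a streptavidin capture as well as the HuR immunoprecipitation, and the input libraries had the immunoprecipitation alone. For the input there were 2 libraries per treatment for NLS and for NES, and 4 mock and 5 arsenite libraries for G3BP. For the enriched RNA there were 4 libraries per treatment for NLS and for NES, and 6 mock and 7 arsenite libraries for G3BP. Whether an APEX line is a single clone, what promoter drives the enzyme and whether replicates are separate cultures is not given in the sources used here, so p-values measure the spread between these libraries, which may be technical.

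Levels are given as CPM, the tags in a peak (or in all peaks of a gene and class) per 1000000 of the library total that the authors divided by. Tags in listed peaks ranged from 235471 to 673322 per fraction library, from 1353 to 484305 per input library and from 519 to 86419 per enriched library. The RAB genes held 591 to 1952 tags in a fraction library, with a median of 1077, against a median of 323 in the input and 25 in the enriched libraries. With 9 of 29 enriched libraries and 3 of 17 input libraries under 20 RAB tags, single genes are best resolved in the fractions. The description starts there for that reason. All fraction libraries share 1 library set of the sample descriptions (JL0380), so fractionation and that set cannot be told apart. Of the hepatocyte markers, 6 of 8 had peaks, led by AFP with 13735 tags and ALB with 3784, while APOA1 and TTR had 0. The summed hepatocyte marker level was 1774 to 2520 CPM in the mock cytoplasmic and 945 to 1062 CPM in the arsenite cytoplasmic libraries, and 1112 to 1195 CPM and 654 to 707 CPM in the nuclear ones. Its part in the arsenite results was not tested. Leukocyte, fibroblast and endothelial markers had 55, 7 and 10 tags in all.

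HuR tags on the RAB genes were spread very unevenly. Together the genes held 21023 tags, which is 0.267% of all tags in peaks. The 10 genes with the most tags held 71.1% of them. RAB28, a member with a role in cilia and photoreceptors, came first with 2610 tags in 121 peaks, and RAB5A, the organiser of early endosome fusion, second with 2594 tags in 48 peaks. They were followed by RAB7A of late endosomes (1670 tags), RAB21 of early endosomes and integrin traffic (1385), RAB1A of transport from the endoplasmic reticulum to the Golgi (1324), RAB10 of polarised transport (1223), RAB2A of the Golgi (1082), RAB14 of endosome to Golgi transport (1031), RAB6A of the Golgi (1018) and RAB8B of polarised transport (1000). At the other end RAB20 and RAB4B had 5 tags each over all libraries.

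Introns and 3'UTRs carried nearly all of the signal. Introns held 705 peaks and 52.0% of RAB tags, and 3'UTRs held 219 peaks in 34 genes and 40.3% of RAB tags. In all other named genes the shares were 51.8% for introns and 29.5% for 3'UTRs, while noncoding RNA held 10.3% there and 1.25% in RAB genes. A RAB 3'UTR peak held 38.6 tags on average against 50.0 in other genes, and a RAB intron peak 15.5 against 15.3. The remaining RAB peaks were 35 in transposable elements, 26 in the class Other, 12 each in coding sequence and noncoding RNA, and 4 in 5'UTRs.

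**Figure D1:**
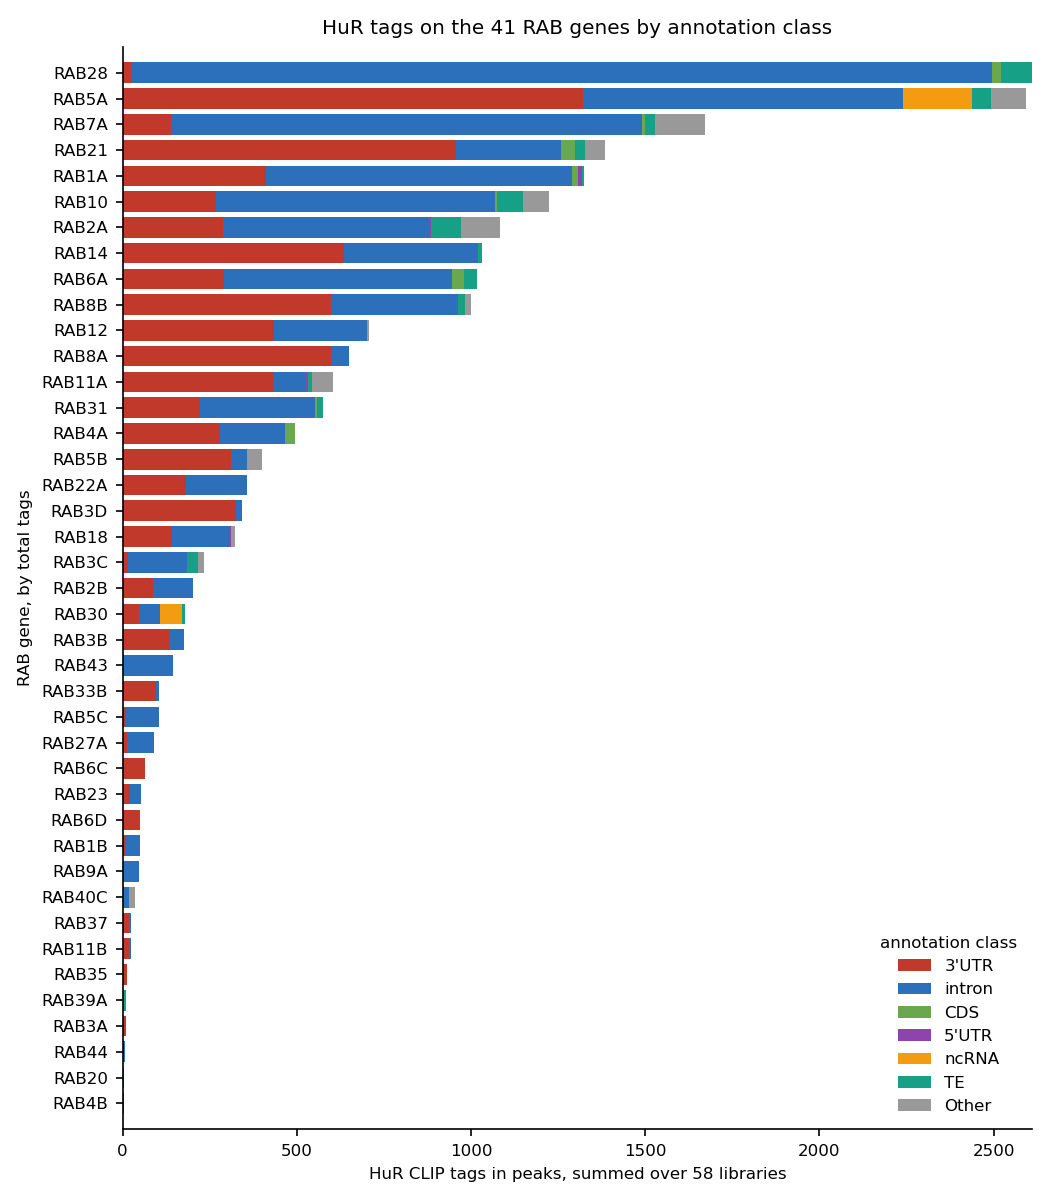
HuR tags in peaks (x axis, summed over 58 libraries) for each of the 41 RAB genes (y axis, in order of total tags), with the bar divided by annotation class. RAB28, RAB7A and RAB10 are mostly intron, whereas RAB21, RAB14, RAB8A and RAB3D are mostly 3'UTR, and RAB5A has large parts of both.

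Genes with similar totals differed in where the tags lay. RAB28 had 2470 tags in introns and 24 in the 3'UTR over a gene span of 117 kb, which is 21.2 intron tags per kb. RAB7A had 1351 intron and 139 3'UTR tags. In RAB5A the split was 918 intron and 1322 3'UTR tags, and its 68.1 tags per kb of span were more than RAB14 (43.4), RAB1A (30.6), RAB21 (30.5) or RAB28 (22.4) had. The span is that of RefSeq, and all tags of a gene were divided by it, although only 116 of the 121 RAB28 and 54 of the 58 RAB1A peaks lie inside it; for RAB5A, RAB14 and RAB21 all do. RAB21 had 958 of its tags in the 3'UTR, spread over 25 peaks along 11183 nt. RAB8A, a GTPase of apical and ciliary transport, had 92.0% of its 649 tags in the 3'UTR, and RAB3D, a regulator of secretory granules, 95% of its 343.

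The strongest RAB peak is in the 3'UTR of RAB5A. It lies at chr3:19984425-19984445 on the plus strand (GRCh38.p14 as named in the submitters' processing notes, coordinates as the table gives them) and held 1153 tags, 87.2% of the 3'UTR tags of the gene. The other 7 RAB5A 3'UTR peaks shared the rest over a stretch of 1174 nt. Among all peaks it ranked 216, and among the 37614 peaks in 3'UTRs 125. The next RAB peak, in the 3'UTR of RAB8A at chr19:16133464-16133484 (annotated 3'UTR and Other), held 387 tags. The median RAB peak had 11 tags, and 26 RAB peaks had 100 or more.

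Paralogs of one subfamily could differ widely in total. Among the early endosome RAB5 genes, RAB5A had 2594 tags, RAB5B 399 and RAB5C 105. RAB1A had 1324 and RAB1B 50. RAB2A had 1082 and RAB2B 203, RAB4A had 495 and RAB4B 5, and RAB11A had 605 and RAB11B 24. RAB8A and RAB8B were closer, at 649 and 1000, but 364 of the RAB8B tags were in introns. In the secretory RAB3 group RAB3D had 343 tags, RAB3C 234, RAB3B 175 and RAB3A 9. RAB27A had 91 tags and RAB40C 34, while the listed RAB27B and RAB40B had no peaks. RAB6A had 1018, and the near-identical copies RAB6C (65) and RAB6D (51) may share reads with it, so the values of these 3 genes are uncertain.

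By role, the early endosome group (9 of 9 listed members with peaks) held 33.0% of RAB tags, of which 56.4% were in 3'UTRs. The group of the endoplasmic reticulum and Golgi (9 of 14 listed) had 4428 tags and 31.0% in 3'UTRs, and the late endosome and lysosome group (3 of 9) had 2424 tags and 23.6%. The recycling and polarised transport group (6 of 10) had 3514 tags and 54.8% in 3'UTRs, and the regulated secretion group (6 of 8) had 877 tags and 58.4%. RAB7A held 1670 of the tags of the late endosome group.

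The share of RAB tags that lay in 3'UTRs differed between the fractions. In the mock libraries it was 16.6% ± 0.892 (SD, n = 3) in the nuclear fraction and 59.4% ± 6.11 (SD, n = 3) in the cytoplasmic fraction. After arsenite it was 31.5% ± 4.44 (SD, n = 3) and 45.3% ± 1.23 (SD, n = 3). The ranges were 15.6% to 17.4% for nuclear mock, 26.9% to 35.8% for nuclear arsenite, 44.3% to 46.7% for cytoplasmic arsenite and 52.4% to 63.6% for cytoplasmic mock, so none of the groups overlapped. The difference between nucleus and cytoplasm was -42.7 points in mock and -13.8 points after arsenite. Arsenite came with 14.8 points more in the nucleus and a difference of -14.1 points in the cytoplasm. Other named genes had a mean 3'UTR share of 14.3%, 50.5%, 23.6% and 30.1% in the nuclear mock, cytoplasmic mock, nuclear arsenite and cytoplasmic arsenite libraries. The total RAB level was 868 ± 29.7 CPM (SD, n = 3) in nuclear mock, 1035 ± 100 in cytoplasmic mock, 921 ± 59.5 in nuclear arsenite and 1075 ± 50.4 in cytoplasmic arsenite. A change in tags can come from the amount of RNA in a fraction or from HuR bound per RNA, which cannot be told apart here. In bulk samples fewer cells with an RNA and less of it per cell cannot be told apart either.

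**Figure D2:**
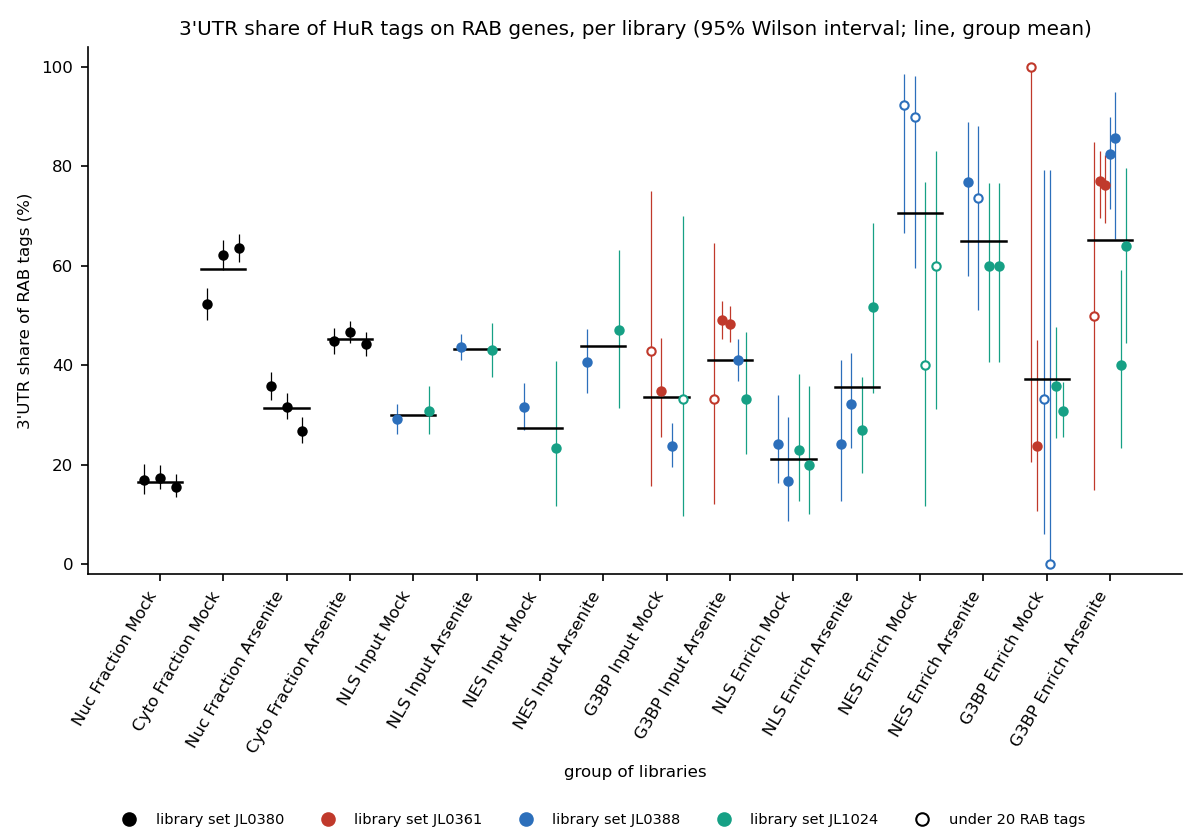
Share of RAB tags in 3'UTRs (y axis, percent) for each of the 58 libraries by group (x axis), with 95% Wilson intervals that cover counting error only; lines are group means, colours are library sets, and open points have under 20 RAB tags. The nuclear mock libraries sit at 15.6% to 17.4% and the cytoplasmic mock libraries at 52.4% to 63.6%, with both arsenite groups between them.

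For tests, tags were summed per gene and class, which gave 30217 sums. Those that passed a filter on low values entered a limma fit, from 1547 to 27489 sums by comparison. In the mock fractions 81 RAB sums passed the filter on low values, and 18 fell and 9 rose in the nucleus relative to the cytoplasm at a Benjamini-Hochberg adjusted p under 0.05. Over all sums tested 16.2% fell and 12.8% rose. Scaled to the tags in peaks instead of the library total, 18 RAB sums fell and 14 rose, and over all sums 3336 fell and 3464 rose, where 3441 fell and 2714 rose before. By class, 18 of the 26 RAB 3'UTR sums tested were lower in the nucleus, against 49.4% of all 3'UTR sums. The median was -1.37 for RAB and -0.98 for all 3'UTR sums. In introns 7 of 31 RAB sums were higher in the nucleus, against 25.1% of all intron sums, with medians of 0.54 and 0.48.

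The RAB5A 3'UTR had the largest difference of the RAB 3'UTR sums in mock. Its levels were 7.29, 5.46 and 8.69 CPM in the nuclear and 53.2, 67.2 and 64.3 CPM in the cytoplasmic libraries (log2 difference -2.77, SE 0.23, adjusted p 1.17e-06 by limma). Every cytoplasmic library was above every nuclear one. RAB8B, for polarised transport, had 13.1, 7.27 and 3.86 CPM in the nucleus and 44.7, 65.2 and 55.9 in the cytoplasm (log2 -2.56, SE 0.31). RAB21 had 13.1, 12.7 and 18.3 CPM against 72.3, 85.6 and 87.5 (log2 -2.32, SE 0.21). The groups did not overlap for either gene. RAB8A had 8.74, 12.7 and 14.5 CPM against 53.2, 66.2 and 83.3 (log2 -2.29, SE 0.24). RAB2A, which acts between the Golgi and the endoplasmic reticulum and in autophagy, had 2.91, 4.55 and 2.90 CPM against 24.5, 26.5 and 23.2 (log2 -2.25, SE 0.27). RAB14 had 8.74, 11.8 and 11.6 CPM against 43.6, 47.9 and 58 (log2 -2.0, SE 0.22). In these 3 genes too the fractions were fully separated.

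The other 3'UTR sums called lower in the nucleus were smaller in size. They were RAB10 (-1.69), RAB31 (-1.64), RAB1A (-1.60), RAB7A (-1.60), RAB6A (-1.55), RAB3D (-1.55), RAB11A (-1.51), RAB22A (-1.22), RAB18 (-1.13), RAB4A (-1.08), RAB5B (-1.06) and RAB12 (-1.05) as log2 differences. By role, 7 of 7 early endosome 3'UTR sums tested fell, as did 4 of 5 in recycling and polarised transport, 4 of 7 of the endoplasmic reticulum and Golgi, 2 of 2 of late endosomes and 1 of 2 of regulated secretion. These counts stand beside 18 of 26 for all RAB and 49.4% for all 3'UTR sums, and nothing particular to a role is read from them. The 8 RAB 3'UTR sums that did not pass the test included RAB28 at -0.03 (SE 0.39) and RAB35, a recycling GTPase, at -0.94 (adjusted p 0.0501). In mock RAB35 had 7 tags in cytoplasmic libraries and 0 in nuclear ones, and it passed the filter through the cytoplasmic libraries alone.

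The intron sums that passed the test went the other way. The RAB28 introns had 162, 147 and 188 CPM in the nuclear mock libraries and 84, 66.2 and 72.8 in the cytoplasmic ones (log2 difference 1.13, SE 0.16, adjusted p 0.000127 by limma). All nuclear libraries were above all cytoplasmic ones. RAB5A introns were at 54.9 ± 9.33 CPM (SD, n = 3) in the nucleus and 25 ± 4.77 in the cytoplasm (log2 1.07, SE 0.21), opposite in sign to the RAB5A 3'UTR. The introns of RAB22A (1.00), RAB2A (0.94), RAB7A (0.84), RAB31 (0.83) and RAB6A (0.74) were also called higher in the nucleus. The remaining nuclear calls were RAB10 peaks of the class Other (1.05) and transposable elements in RAB3C, at 0 tags in the cytoplasm and at least 1.35-fold higher in the nucleus against a floor of 3 tags over the group. The RAB3C sum passed the filter through the nuclear libraries alone, so its call among the 9 is only a description.

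Leaving out 1 library at a time gave groups of 2 against 3 and kept the call in all 6 fits for 13 of these 3'UTR sums (RAB5A, RAB8B, RAB21, RAB8A, RAB2A, RAB14, RAB10, RAB31, RAB1A, RAB6A, RAB3D, RAB11A and RAB22A) and for the introns of RAB28, RAB5A and RAB2A. The 3'UTR calls of RAB12 and RAB7A were lost without nuclear mock library 1 or cytoplasmic mock library 2 or 3, and that of RAB5B without nuclear library 1 or 2 or cytoplasmic library 2 or 3. RAB18 was called only without nuclear library 1 and RAB4A only without nuclear library 2. The intron call of RAB31 was lost without nuclear library 1 or 2 and that of RAB7A without nuclear library 2 or cytoplasmic library 2 or 3. The intron of RAB22A was called only without nuclear library 3, that of RAB6A only without nuclear library 2 and RAB10 Other only without cytoplasmic library 2. The RAB3C elements were called in none of the 6. A pseudocount 4 times smaller ended the calls of the RAB18 and RAB4A 3'UTRs and of RAB10 Other. The calls of RAB10 Other and the RAB3C elements also ended with a pseudocount 4 times larger, with no filter, with edgeR and with a replicate block, and that of RAB18 with the block and with scaling to tags in peaks.

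Single peaks gave fewer calls. Of 450 RAB peaks tested in the mock fractions, 19 were lower and 1 higher in the nucleus, where 2.29% and 0.53% of all peaks were. All 19 lower peaks were among the 122 RAB 3'UTR peaks tested (15.6%), and 13.1% of all 3'UTR peaks were lower. Of the 19, 1 each in RAB8B, RAB8A and RAB2A had 0 nuclear tags and passed the filter through the cytoplasmic libraries alone, and 15 of the 122 had a group at 0, so nothing is read from the 2 shares. The 1 higher peak was 1 of 290 intron peaks tested, where 0.453% of all were. The RAB5A peak at chr3:19984425-19984445 had 4.37, 4.55 and 4.83 CPM in the nucleus and 46.8, 62.1 and 55.9 in the cytoplasm (log2 -3.05, SE 0.25, limma adjusted p 0.000390). RAB8B at chr15:63265387-63265407 had 2.91, 2.73 and 0 CPM against 17.0, 19.4 and 19.0 (log2 -2.41), and RAB21 at chr12:71786436-71786456 had 1.46, 0 and 0.966 against 12.8, 18.3 and 8.44 (log2 -2.30). RAB14 at chr9:121179374-121179394 had 1.46, 3.64 and 2.90 CPM against 16, 20.4 and 24.3 (log2 -2.19). The only RAB peak called higher in the nucleus was in a RAB28 intron at chr4:13412003-13412023 on the minus strand, with 11.7, 11.8 and 8.69 CPM against 2.13, 2.04 and 1.05 (log2 1.69). The number of called RAB peaks was 43 without nuclear mock library 1 and 0 or 1 without any other library. The RAB5A peak lost its call only without cytoplasmic mock library 2. The RAB8B peak kept its call in 1 of the 6 fits that left out a library, and lost it with the smaller pseudocount.

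After arsenite the fractions differed in fewer RAB sums. Of 93 RAB sums tested 5 were lower and 1 was higher in the nucleus, where 3.38% and 1.62% of all sums were. All 5 lower sums were 3'UTRs out of 30 tested, against 9.89% of all 3'UTR sums, and the median was -0.41 for RAB and -0.17 for all 3'UTR sums. RAB5A had 33.6, 44.0 and 39 CPM in the nucleus and 103, 110 and 111 CPM in the cytoplasm (log2 -1.42, SE 0.14, limma adjusted p 2.00e-07). The libraries of the 2 fractions did not overlap. RAB5B (-0.98), RAB31 (-0.96), RAB8B (-0.84) and RAB14 (-0.79) were the others. The 1 higher sum was RAB4A introns, of an early and recycling endosome GTPase (1.03), where 1.41% of all intron sums were higher. RAB5A kept its call in all 6 fits that left out 1 library. RAB14 and RAB5B lost theirs without nuclear arsenite library 3 or cytoplasmic arsenite library 2 or 3, RAB31 was called only without nuclear library 2, the RAB4A introns only without nuclear library 1, and RAB8B in none. The smaller pseudocount also ended the calls of RAB8B and the RAB4A introns. Of 667 RAB peaks tested only the RAB5A peak above was called, as lower in the nucleus (0.147% of all peaks and 0.766% of all 3'UTR peaks were), with 28.8, 38.4 and 35.5 CPM against 98.2, 103 and 106 in the cytoplasm (log2 -1.53, SE 0.16). That peak call was lost without nuclear library 3 or any of the cytoplasmic libraries.

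Arsenite against mock was then compared within each fraction. These comparisons reuse the libraries of the fraction comparisons, so they are not independent of them. In the cytoplasm 5 of 94 RAB sums tested fell and 7 rose with arsenite, where 6.62% of all sums fell and 6.7% rose. Among 33 RAB 3'UTR sums 5 fell, against 18.6% of all 3'UTR sums, and 3 rose, against 0.942%. Of the 3, RAB3A and RAB3C had 0 tags in mock and passed the filter through the arsenite libraries alone, so only RAB5A can be read against that share. The medians were -0.33 and -0.30.

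RAB5A rose in the cytoplasm with arsenite, where 5 other RAB 3'UTR sums fell. Its 3'UTR went from 53.2, 67.2 and 64.3 CPM to 103, 110 and 111 CPM (log2 0.79, SE 0.16, limma adjusted p 0.00427). The lowest arsenite library was above the highest mock library. The 7 weaker RAB5A 3'UTR peaks together had 6.64 ± 1.69 CPM (SD, n = 3) in mock and 5.15 ± 0.991 in arsenite, so the higher tags lay in the strongest peak. That peak had 46.8, 62.1 and 55.9 CPM in mock and 98.2, 103 and 106 after arsenite, but as a single peak it did not pass the test (log2 0.88, SE 0.18, limma adjusted p 0.0661).

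RAB8A 3'UTR levels fell in the cytoplasm from 53.2, 66.2 and 83.3 CPM to 28.9, 30.7 and 27.1 (log2 -1.14, SE 0.19). RAB21 fell from 72.3, 85.6 and 87.5 CPM to 41.2, 42.1 and 37.6 (log2 -0.98, SE 0.17), and RAB2A from 24.5, 26.5 and 23.2 CPM to 11.6, 17.6 and 11.1 (log2 -0.80, SE 0.23). In each of the 3 genes the arsenite libraries were all below the mock libraries. RAB4A fell by 1.02 and RAB6A by 0.93 on the log2 scale. RAB14, at 43.6, 47.9 and 58 CPM in mock and 36.8, 38.1 and 41.7 after arsenite, did not pass the test.

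The other cytoplasmic rises were in introns or from 0. RAB7A introns had 39.4, 30.6 and 29.5 CPM in mock and 58.5, 56.8 and 68.2 after arsenite (log2 0.85, SE 0.18), RAB28 introns 84, 66.2 and 72.8 against 96.7, 118 and 133 (0.62), and RAB1A introns 30.0 ± 1.76 (SD, n = 3) against 47.0 ± 3.86 (0.61). In introns 3 of 32 RAB sums rose, against 13.5% of all. The 3'UTRs of the synaptic vesicle genes RAB3A and RAB3C, and transposable elements in RAB7A, had 0 tags in the mock cytoplasm, and were at least 1.5-fold, 1.93-fold and 1.49-fold higher after arsenite against a floor of 3 tags over the group. These 3 passed the filter through the arsenite libraries alone.

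When 1 library was left out, RAB21 kept its cytoplasmic call in all 6 fits. RAB8A lost its call without cytoplasmic arsenite library 2 and RAB5A without cytoplasmic arsenite library 2 or 3. RAB7A introns lost theirs without cytoplasmic mock library 2 or any arsenite library. The introns of RAB28 and RAB1A were called only without mock library 1. RAB2A, RAB4A, RAB6A, RAB3A, RAB3C and the RAB7A elements were called in none of the 6. The smaller pseudocount ended the call of RAB6A and a replicate block that of the RAB1A introns. The calls of RAB3A, RAB3C and the RAB7A elements ended with edgeR and with no filter on low values, those of RAB3A and the RAB7A elements also with the block, and that of RAB3A also with a larger pseudocount. Single peaks called among 578 RAB peaks tested were 2 higher and 1 lower, where 0.24% and 0.52% of all peaks were. The 2 higher ones were intron peaks (0.231% of all intron peaks rose) and the lower one a 3'UTR peak (2.69% of all 3'UTR peaks fell). RAB8B at chr15:63265387-63265407 went from 17.0, 19.4 and 19.0 CPM to 1.44, 3.98 and 2.78 (log2 -2.08, SE 0.28). The RAB28 intron peak at chr4:13412003-13412023 went from 2.13, 2.04 and 1.05 CPM to 10.1, 11.4 and 13.9 (1.81), and a RAB1A intron peak at chr2:65129184-65129204 from 0, 1.02 and 1.05 to 7.94, 7.39 and 6.26 (1.69). All 3 peaks lost their call without any 1 of the mock libraries.

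**Figure D3:**
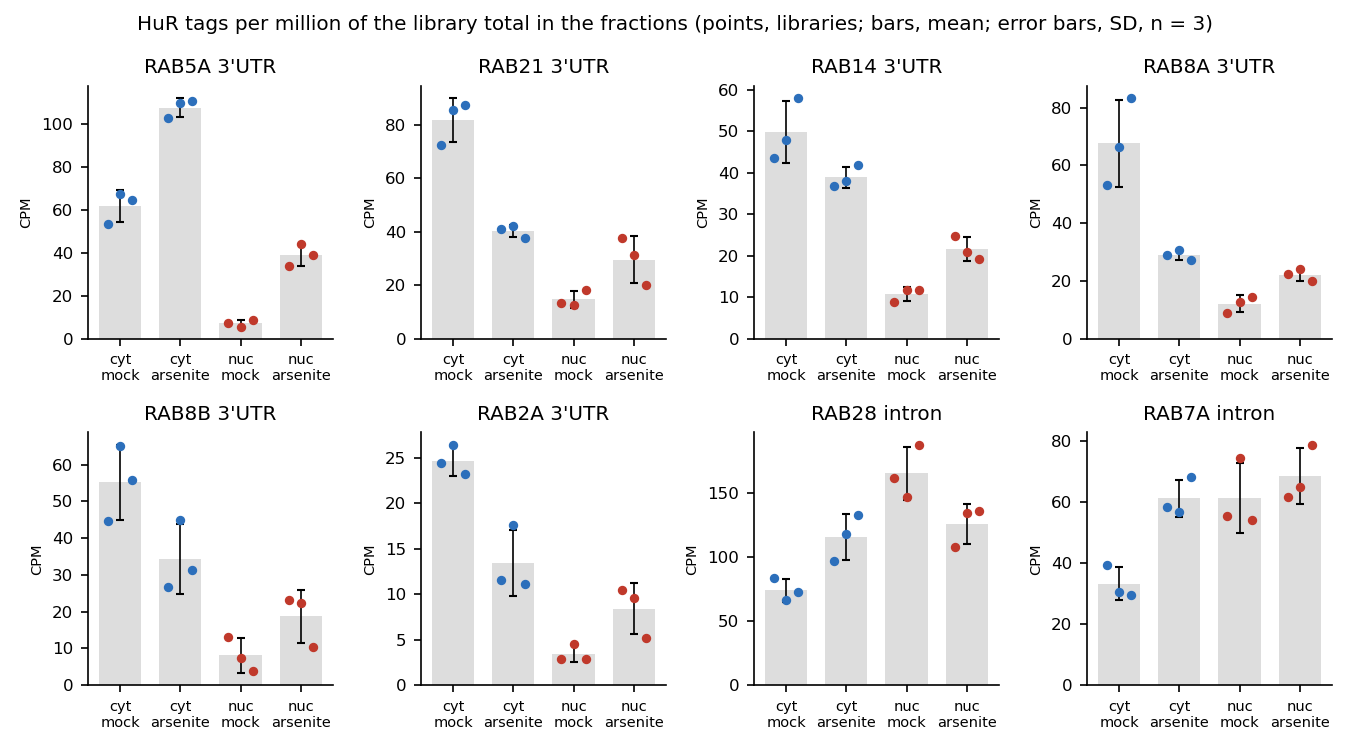
Level (y axis, CPM) of 6 RAB 3'UTR sums and 2 intron sums in the 4 fraction groups (x axis); points are libraries, bars are means and error bars are SD (n = 3). RAB5A stands at 103 to 111 CPM in the arsenite cytoplasm against 53.2 to 67.2 in the mock cytoplasm, while RAB21 and RAB8A are lower after arsenite there.

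In the nucleus the RAB sums that limma called with arsenite were 3'UTRs and higher. Of 84 RAB sums tested 4 rose and 0 fell, where 4.48% of all sums rose and 1.65% fell; 21 of the 84 RAB sums and 4604 of all 22212 sums had an unadjusted limma p under 0.05. With edgeR 5 RAB sums rose and the RAB28 introns fell (log2 -0.40, adjusted p 0.0461). The edgeR count over all sums is not given here, so nothing is read from that count. With scaling to tags in peaks limma called 3 RAB sums higher and 1 lower, and 941 and 500 of all sums. The 4 sums that rose before scaling were among 28 RAB 3'UTR sums, against 13.8% of all 3'UTR sums that rose. The medians were 0.53 and 0.39 (0.49 for RAB with the 3 sums that had a group at 0 set to their bound). RAB5A went from 7.29, 5.46 and 8.69 CPM to 33.6, 44.0 and 39 (log2 2.13, SE 0.22, limma adjusted p 2.91e-05). RAB3D went from 4.93 ± 2.04 CPM (SD, n = 3) to 18.1 ± 7.0 (log2 1.47, SE 0.32). RAB21 went from 13.1, 12.7 and 18.3 CPM to 37.6, 31.2 and 19.9 (0.88), and RAB14 from 8.74, 11.8 and 11.6 to 24.8, 20.8 and 19.1 (0.88). No arsenite library was below a mock library in RAB5A, RAB21 or RAB14. RAB5A lost its call only without nuclear arsenite library 3, RAB3D was called only without nuclear mock library 1, and RAB21 and RAB14 were called in none of the fits that left out 1 library. RAB21 also lost its call with the smaller pseudocount and with scaling to tags in peaks. Of 543 RAB peaks 1 rose, against 0.152% of all peaks and 1.2% of all 3'UTR peaks. It was the RAB5A peak, from 4.37, 4.55 and 4.83 CPM to 28.8, 38.4 and 35.5 (log2 2.40, SE 0.25), and this call was lost without nuclear mock library 1 or nuclear arsenite library 1 or 2.

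The change in the difference between fractions was tested as the interaction of fraction and arsenite, which is positive where the nuclear level gained on the cytoplasmic one. For sums this test was added after the data were seen. Of 105 RAB sums 7 were positive and 2 negative at an adjusted p under 0.05, where 7.05% and 3.99% of all sums were (7 and 4 when scaled to tags in peaks). The 7 were 3'UTRs out of 33 tested, which is 21.2%, against 24.2% of all 3'UTR sums. They were RAB8A (1.93, SE 0.32), RAB21 (1.86, SE 0.30), RAB8B (1.72, SE 0.37), RAB2A (1.68, SE 0.41), RAB4A (1.62, SE 0.42), RAB5A (1.34, SE 0.29) and RAB14 (1.21, SE 0.32).

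The levels behind these interactions differ between genes. In RAB8A the nuclear level went from 12 ± 2.94 CPM (SD, n = 3) to 22.1 ± 2.05 while the cytoplasmic level went from 67.6 ± 15.1 to 28.9 ± 1.79. In RAB8B they went from 8.08 ± 4.68 to 18.7 ± 7.18 and from 55.2 ± 10.3 to 34.3 ± 9.46. In RAB2A they went from 3.45 ± 0.947 to 8.40 ± 2.80 and from 24.7 ± 1.66 to 13.4 ± 3.63. RAB5A is the 1 gene of the 7 whose mean level was higher after arsenite in both fractions.

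The negative interactions, which 9.37% of all intron sums had, were introns of RAB28 (-1.01, SE 0.21) and RAB5A (-0.91, SE 0.28). RAB28 introns went from 166 ± 20.8 to 126 ± 15.7 CPM (SD, n = 3) in the nucleus and from 74.3 ± 9.02 to 116 ± 18.2 in the cytoplasm. RAB5A introns went from 54.9 ± 9.33 to 43.8 ± 1.83 and from 25 ± 4.77 to 39.2 ± 2.68. The RAB5A intron call was lost in 5 of the 12 fits that left out 1 library (nuclear mock 1, nuclear arsenite 1, cytoplasmic mock 3, cytoplasmic arsenite 1 and 2), and the other 8 calls were kept in all 12. Of 910 RAB peaks 2 had a positive interaction (0.318% of all peaks and 2.46% of all 3'UTR peaks did), in RAB21 at chr12:71786436-71786456 (2.27, SE 0.55, adjusted p 0.0217) and in RAB5A at chr3:19984425-19984445 (1.52, SE 0.36, adjusted p 0.0151). The RAB21 peak had 5.78, 5.68 and 8.35 CPM in the arsenite cytoplasm and 7.21, 8.0 and 4.33 in the arsenite nucleus, so those groups overlapped. Each peak lost its call in 6 of the 12 fits. For RAB21 these left out nuclear mock 2, nuclear arsenite 1 or 2, cytoplasmic mock 2, or cytoplasmic arsenite 1 or 2. For RAB5A they left out nuclear arsenite 2 or 3, cytoplasmic mock 2, or cytoplasmic arsenite 1, 2 or 3. The RAB5A peak also lost its call with a pseudocount 4 times larger (log2 0.85, limma adjusted p 0.499).

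**Figure D4:**
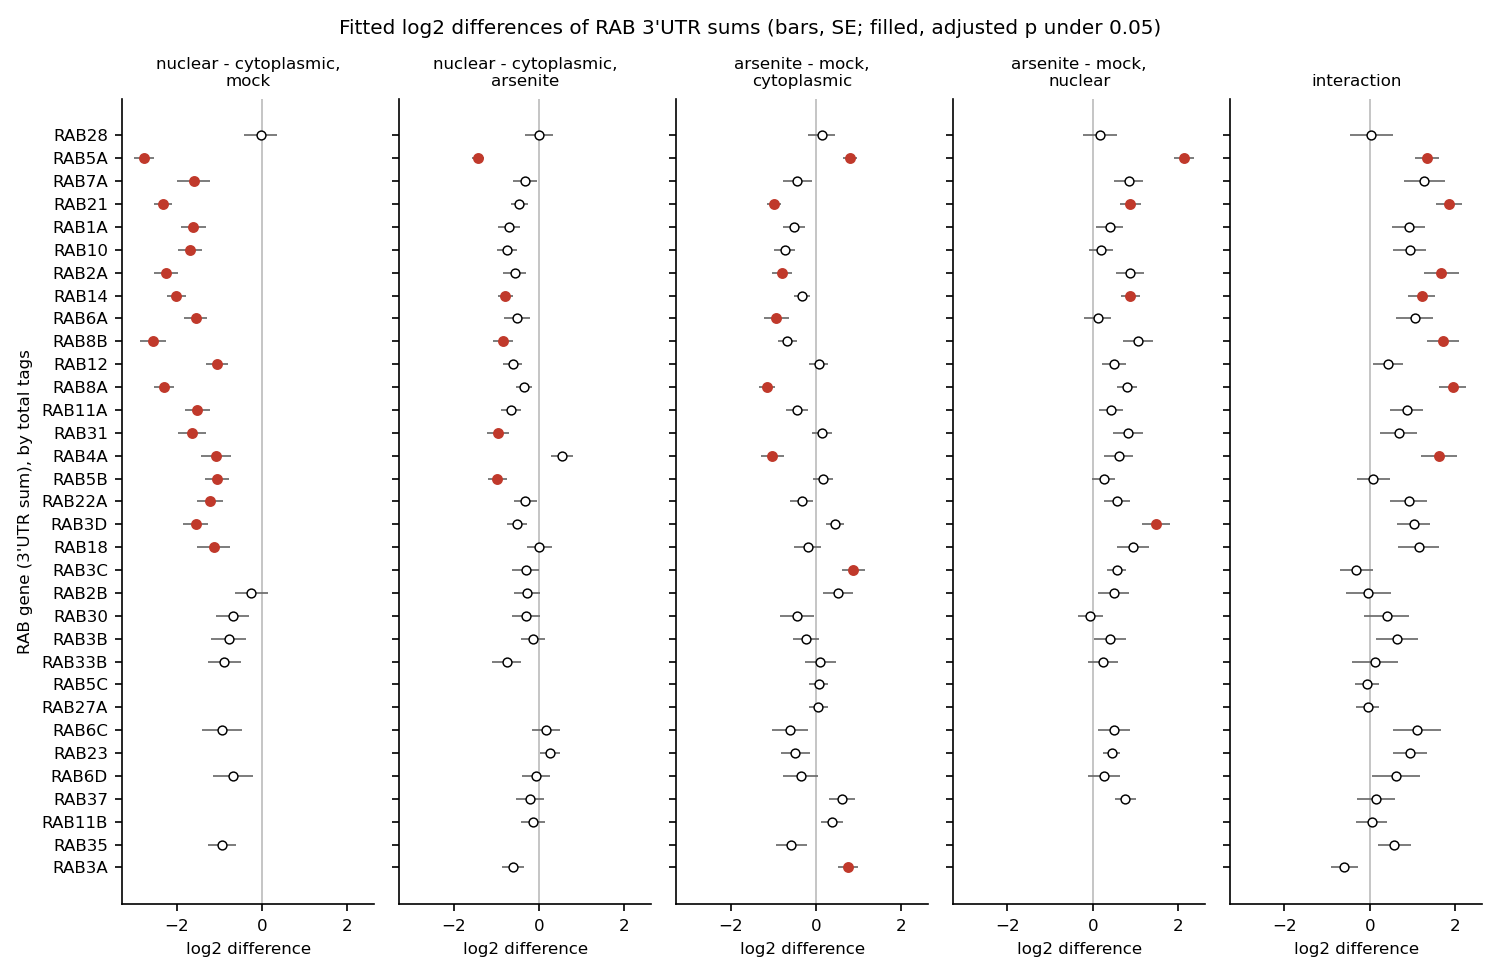
Fitted log2 differences (x axis) of the RAB 3'UTR sums tested (y axis, genes by total tags) for the 4 fraction comparisons and the interaction; bars are SE and filled points passed an adjusted p under 0.05. In mock all points lie at or below -0.03, whereas RAB5A at 2.13 is the highest in the arsenite comparison of the nucleus.

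In the enriched libraries RAB 3'UTR shares also differed between the nuclear and the cytoplasmic APEX line. Without arsenite the NLS libraries had 21.2% ± 1.67 (SD, n = 3), while NES libraries had 70.6% ± 25.1 (SD, n = 4), a difference of -49.4 points. After arsenite it was 35.6% ± 14 (SD, n = 3) and 65.1% ± 8.84 (SD, n = 3), a difference of -29.5 points. Other named genes had 13.8% in NLS and 32.5% in NES in mock, and 19.3% and 33.3% after arsenite. Neither pair of RAB groups overlapped, but all 4 NES mock libraries had under 20 RAB tags. Some pairs of libraries of a group did not differ beyond the sampling noise, and 4 such pairs were counted as 1 sample each in means and shares. The limma tests took every library, 4 against 4 for NLS and NES. The pairs were libraries 1 and 2 of the NLS group under both treatments and of the NES group under arsenite, and G3BP arsenite libraries 4 and 5. G3BP mock libraries 3 and 4 did not differ either, but were kept apart because a pair of another library set, thinned to their 1831 and 679 tags, did not differ either. In the input libraries the share was 30.0% in mock and 43.3% in arsenite for NLS, 27.5% and 43.9% for NES (2 libraries each), and 33.7% ± 7.85 (SD, n = 4) and 41% ± 7.69 (SD, n = 5) for G3BP. The 3 input libraries under 20 RAB tags are all G3BP ones and weigh as much as the others in these means. Over summed tags the G3BP input share was 26.3% in mock and 46.2% in arsenite. Other named genes had 18.7% and 27.2% in the NLS, 20.7% and 26.9% in the NES and 22.3% and 35.8% in the G3BP input.

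G3BP enriched libraries had a RAB 3'UTR share of 65.2% ± 17.2 (SD, n = 6) after arsenite and 37.3% ± 33.4 (SD, n = 6) in mock. The ranges, 40.0% to 85.7% and 0% to 100%, overlapped, but the mock values of 0% and 100% come from libraries with 1 RAB tag each. Over the libraries with at least 20 RAB tags the mock range was 23.8% to 35.8%, which lies below the arsenite range, and the difference was 40.8 points. No mock library of set JL0388 was left there, while its arsenite libraries were kept, so the 40.8 points mix library sets. Within set JL1024 the difference was 18.7 points. Other named genes had a mean share of 38.3% in mock and 58.9% after arsenite over all libraries of the groups. Over the libraries with at least 20 RAB tags their share ranged from 29.7% to 45.5% in mock and from 37.7% to 73.5% after arsenite, so those ranges overlapped. The RAB5A 3'UTR was at 0, 34.7, 36.2, 124, 71.3, 34.2 and 74.7 CPM in the arsenite libraries and at 0, 0, 0, 0, 23.9 and 16.9 CPM in the mock libraries. The mock values of 0 come from libraries with 1, 21, 3 and 1 RAB tags, and the arsenite 0 from a library with 4. In the libraries with 1, 3 or 4 RAB tags a 0 cannot show a low level. The log2 difference was 3.09 (SE 1.11) with an adjusted p of 0.230 by limma, so it did not pass the test. Of 12 RAB sums tested 11 had a positive log2 difference and 0 were called, where 74.8% of all sums tested were positive, with a median of 0.78. None of the 2560 sums tested in that comparison was called by limma, with 415 at an unadjusted p under 0.05, which gives a background of 0%, while edgeR called 108 of them and no RAB sum.

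Few RAB sums could be tested between the APEX lines. Between NLS and NES enriched mock libraries 10 RAB sums passed the filter and 3 rose in NLS, where 20.8% of all sums and 26.9% of all intron sums rose. All 3 were introns with 0 tags in NES: RAB5A at 15.4 ± 11.3 CPM (SD, n = 3) in NLS, RAB7A at 13.1 ± 14.1 and RAB10 at 8.03 ± 5.42 (limma adjusted p 0.0217 each). All 3 passed the filter through the NLS libraries alone, so a sum that passed had to differ, and the p-values support nothing. Against a floor of 3 tags over the NES group, RAB5A was at least 1.58-fold and RAB7A at least 1.34-fold higher, and RAB10 was under that floor. Leaving out any of the 4 NES mock libraries ended these calls, and leaving out NLS library 1 ended those of RAB5A and RAB7A. Scaled to tags in peaks, 3 RAB sums rose and 1 fell. After arsenite 2 of 16 rose, where 13.8% of all sums and 22.5% of all intron sums did. These were introns of RAB5A (17.6 ± 26.4 CPM against 0, at least 6.83-fold) and RAB2A (12.9 ± 16.5 CPM against 0, at least 4.99-fold), at an adjusted p of 0.0450 each. Both passed the filter through the NLS libraries alone, so these calls too are only a description. Both were lost when any 1 of the 8 libraries was left out. Scaled to tags in peaks, 2 RAB sums rose, and over all sums 268 did, where 513 did before. With agreeing pairs counted once, 0 RAB sums were called in either test of NLS against NES. The filter still asked for tags in 4 libraries there, so the called sums with 0 NES tags could not enter. This 0 is therefore no test of those calls.

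Against NES, G3BP gave no RAB call. In mock 0 of 3 RAB sums were called, with 0 of 1547 sums overall and 66 at an unadjusted p under 0.05 by limma, a background of 0%; edgeR called no RAB sum there either. After arsenite 0 of 8 were called, where 3.12% of all sums rose, and 3 RAB sums and 450 of all 2275 sums had an unadjusted p under 0.05. Scaled to tags in peaks, 0 of all sums rose, where 71 did before. RAB7A introns had 37.0 ± 11.8 CPM (SD, n = 3) against 0 in NES, at least 14.3-fold, with a limma adjusted p of 0.0516; edgeR called this sum (adjusted p 0.0150). It passed the filter through the G3BP libraries alone, so neither p supports a difference. RAB5A 3'UTR had 68.8 ± 32.1 CPM against 15.1 ± 9.58 (log2 2.63, SE 0.89, adjusted p 0.0769). This test used the 4 G3BP libraries of the 2 library sets that also hold NES libraries.

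In the input libraries limma called 0 of 55 RAB sums and 0 of 11316 sums between arsenite and mock, a background of 0%, with 9 RAB sums and 1175 sums at an unadjusted p under 0.05. With edgeR on the recovered whole tags 815 sums passed, and the 6 RAB sums among them were all higher after arsenite. They were the 3'UTRs of RAB2B (2.12), RAB12 (1.56), RAB2A (1.34), RAB5A (1.31) and RAB8A (1.30) and introns of RAB7A (0.80), as edgeR log2 differences. By limma 72.2% of all sums tested in that comparison had a positive difference. How many of the 815 rose is not given here, so nothing particular to RAB is read from these 6. RAB5A 3'UTR levels were 13.2 and 16.5 CPM in the NES mock and 51.9 and 65.2 in the NES arsenite input libraries, which did not overlap. In the NLS input they were 7.24 and 21.6 CPM in mock and 15.7 and 38.8 after arsenite, which did. The G3BP input libraries ranged from 0 to 101 CPM in mock with a median of 15.8, and from 0 to 56.3 CPM in arsenite with a median of 28.9. Mock libraries 1 and 4 and arsenite library 1 had totals of 19748, 22476 and 17051 tags, with 7, 6 and 9 RAB tags. In such a library 1 or 2 tags set the level, so no difference is read from these ranges.

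Regulators and effectors of RAB proteins were counted as a list of 68 genes: exchange factors, GTPase-activating proteins, GDP dissociation inhibitors, prenylation enzymes, tethers and adaptors. In the mock fractions 15 of 39 of their 3'UTR sums tested fell in the nucleus, beside 49.4% of all 3'UTR sums. Of 49 intron sums 27 rose, beside 25.1% of all, and 1 fell (MADD, log2 -1.92). Of their 1104 intron peaks tested 4 rose, beside 0.453% of all intron peaks. The tags per sum were not matched between this list and all genes, so nothing particular to the list is read from the intron counts. After arsenite 1 of 40 3'UTR sums fell in the nucleus relative to the cytoplasm, beside 9.89% of all. With arsenite 5 of 42 fell in the cytoplasm, beside 18.6% of all (median -0.09, against -0.30 for all 3'UTR sums), and 5 of 36 rose in the nucleus, beside 13.8%. Of their intron sums 19 of 51 rose in the cytoplasm with arsenite, beside 13.5% of all, and 1 fell (RABGGTB, log2 -1.55). Of their 1328 intron peaks tested there 5 rose, beside 0.231% of all intron peaks. In introns 16 of 54 sums had a negative interaction, beside 9.37% of all, and 1 (MADD) had a positive one. Of their 3'UTR sums 9 of 43 had a positive one, beside 24.2%.

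The following 4 were chosen for their values. Unlike those of the RAB sums, their calls were not followed under other processing or with a library left out. GDI2, which extracts GDP-bound RAB proteins from membranes, had a 3'UTR log2 difference between nucleus and cytoplasm of -4.01 (SE 0.17) in mock and -2.20 (SE 0.12) after arsenite. With arsenite it fell by 0.54 in the cytoplasm (limma adjusted p 0.0375) and rose by 1.26 in the nucleus (limma adjusted p 0.000142). EEA1, the early endosome tether bound by RAB5, was at -1.87 (SE 0.22) between the mock fractions and fell by 1.04 in the cytoplasm with arsenite. USO1, the Golgi tether bound by RAB1, was at -2.66 (SE 0.37) and fell by 1.10. RAB11FIP1, an effector of RAB11, was at -1.99 (SE 0.32), fell by 0.86 in the cytoplasm (limma adjusted p 0.0435) and rose by 1.17 in the nucleus (limma adjusted p 0.0427).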

How the data were processed

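The deposited table gives a signal for every 20 nt peak in every library: CLIP tags over the library's total. The unit was read from the values, and whole tags were recovered for 100% of them (tolerance 0.01). Per the submitters' processing notes, Bowtie2, SAMtools, bedtools and HOMER were used with GRCh38.p14; tool versions, the peak caller and duplicate removal are not given in the sources used here. If PCR duplicates were kept, tags are not independent molecules, and intervals and floors cover counting error only. The table has 395471 lines, of which 8257 repeated ones were dropped; 84358 peaks without a gene name stayed in the tests of peaks. Every per-sample column was mapped to a sample (0 left unused). Library totals ranged from 4662 to 2622677 tags.

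Values and sums per gene and class (30217 in all) were tested, where they passed the filter, on the log2(value + 2.28 CPM) scale with limma 3.58.1 (lmFit, eBayes with trend; R 4.3.3), which understates the change of low values; the pseudocount is the smallest non-zero value of a library, as the median of all 58. A feature needed tags in at least n libraries, where n is the size of the smaller group (3 for the interaction), and p-values were adjusted over all features that passed (Benjamini-Hochberg, 0.05). Tests in the APEX lines had the library set as a covariate. edgeR 4.0.16 on recovered tags was an alternative, besides another pseudocount, no filter, scaling to tags in peaks, a replicate block and leaving out each library. Libraries were not left out in the input comparison, and the calls of single features were followed for RAB features only. Scripts were tested on simulated data. A log2 difference from limma is a difference of means on that scale. CPM means use 1 value per agreeing pair of libraries (32 pairs within sets were compared by chi-square; 5 did not differ, and 4 of these were counted once, since a pair of another set still differed when thinned to their depth).

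Named genes were the 10 with most tags, paralog groups, called sums of enriched or input tests, members of each role and, per peak test, the 4 largest called differences in each direction, at most 1 per gene; other called sums were named after their values were seen. The members and lists were chosen with earlier results of these data known. All 41 genes matched RefSeq by symbol. No genome of the build was used, so peak sequences are not printed. Whether the table counts coordinates from 0 or 1 is not given in the sources used here.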

Additional observations from a re-analysis of the deposited data

Results flagged for a closer look

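Among 16 tests of a group for a library far from the others (chance flags about 1 in 20; total RAB level and 3'UTR share were both tested), a G3BP input arsenite library (replicate 5) had the lowest total RAB level of its group, 298.5 CPM from 54 RAB tags, and a G3BP enriched mock library (replicate 1) had a RAB 3'UTR share of 100%, from 1 RAB tag.

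The effect of arsenite differed between the fractions by the limma interaction test, in log2 units, for single peaks in the 3'UTRs of RAB21 (2.27) and RAB5A (1.52). It also differed for the 3'UTR sums of RAB8A (1.93), RAB21 (1.86), RAB8B (1.72), RAB2A (1.68), RAB4A (1.62), RAB5A (1.34) and RAB14 (1.21), and for the intron sums of RAB28 (-1.01) and RAB5A (-0.91). Positive values mean that the nuclear level gained on the cytoplasmic one.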

How the results depend on the processing

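Differences in RAB 3'UTR share kept their sign under every alternative run. Leaving out each library gave -46.3 to -40.6 points for the mock fractions, -16.0 to -11.5 for the arsenite fractions, -17.6 to -12.0 for arsenite in the cytoplasm, 12.7 to 17.1 in the nucleus, -59.6 to -42.2 for NLS against NES enriched mock, -37.5 to -25.1 after arsenite and 20.5 to 40.5 for G3BP enriched. Within 1 library set, NLS against NES mock was -70.8 points in JL0388 and -28.5 in JL1024, and NLS against NES after arsenite was -47.1 in JL0388 and -20.7 in JL1024. G3BP enriched arsenite against mock was 5.83 in JL0361 (where 1 mock library has 1 RAB tag and 1 arsenite library 4), 67.5 in JL0388 (from mock libraries with 3 and 1 RAB tags) and 18.7 in JL1024.

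Counts of called RAB features moved by over 1.5 times in these cases. Peaks between the arsenite fractions (1 called) gave 2 with no filter and 2 with edgeR, and peaks with arsenite in the nucleus (1 called) gave 2 and 2. Over all peaks between the arsenite fractions 608 were called, with 1304 called without a filter and 1549 with edgeR. Peaks with arsenite in the cytoplasm (3 of 578 called, and 1473 of all 193897) gave 13 with a pseudocount 4 times smaller, 5 when scaled to tags in peaks, 11 with edgeR and 6 with a replicate block. Over all peaks these settings called 6762, 1986, 2800 and 2347. Of the RAB calls 10 were higher and 3 lower with the smaller pseudocount, but 3 higher and 8 lower with edgeR. The cases below are given for RAB alone, and nothing particular to RAB is read from them. Sums of NLS against NES mock (3 called) gave 0 with a pseudocount 4 times larger, with no filter, with edgeR and with agreeing pairs counted once. Sums of NLS against NES after arsenite (2 called) gave 0 under the same 4 settings, with a replicate block and with no set covariate. With agreeing pairs counted once the called sums of these tests could not pass the filter. Sums of G3BP against NES after arsenite (0 called) gave 2 with the larger pseudocount and 1 with edgeR, and input sums (0 called) gave 6 with edgeR. The cause was not tested.

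With 1 library left out, called peaks ranged from 0 to 43 for the mock fractions, 0 to 1 for the arsenite fractions, 0 to 43 for arsenite in the cytoplasm (0 without any 1 of the mock libraries), 0 to 23 in the nucleus (23 without arsenite library 3) and 0 to 3 for the interaction. Called sums ranged from 17 to 22, 1 to 4, 1 to 7, 0 to 2 and 8 to 12 in the same order. In the APEX lines they ranged from 0 to 5 for NLS against NES mock, stayed at 0 after arsenite, at 0 for G3BP against NES mock and at 0 for G3BP with arsenite, and ranged from 0 to 2 for G3BP against NES after arsenite.

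Same-numbered libraries had correlations of -0.0156 to 0.105 in their deviations from the group means, so the numbers were not taken as pairs, and the replicate block changed no other count of calls by over 1.5 times. Scaling to tags in peaks moved the median of all sums by over 0.1 in the enriched tests, for instance from 1.07 to 0.73 for NLS against NES mock and from 0.92 to 0.29 for G3BP against NES after arsenite. It gave 14 RAB sums higher and 18 lower between the mock fractions (9 and 18 before). No called RAB feature changed sign under any alternative; counted over each called feature under each alternative, peaks kept their call 197 times and lost it 139 times, and sums 604 and 221 times. Depth limits the enriched libraries most, with a median of 25 RAB tags.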
